A study of Mus musculus with 66 samples.

Results

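Cholesterol cannot enter the brain from the blood in useful amounts, so neural cells make their own through the mevalonate pathway, which builds isoprenoid units from acetyl-CoA, joins them into squalene and converts squalene into sterols. The sterol regulatory element-binding proteins (SREBPs) are the transcription factors that drive these genes: they are held in the endoplasmic reticulum by INSIG proteins when sterols are plentiful and are carried by SCAP to the Golgi and cleaved when sterols fall. Much of the sterol of the adult brain sits in myelin, and oligodendrocytes, astrocytes and neurons all express the pathway. The 8 genes described here are 5 enzymes of the pathway (Hmgcs1, Idi1, Fdft1, Sqle and Cyp51), the sterol sensor partner Insig1 and the 2 SREBP genes Srebf1 and Srebf2. They were taken by gene symbol from a table of 24138 genes, and all 8 were present as single entries and passed the filter on low values that 14643 genes passed.

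The data are 66 RNA-seq libraries of nucleus accumbens (ventral striatum) punches from male mice on a C57BL/6J background, aged 3 to 5 months and kept in 12 h of light and 12 h of dark. Mice were wild type (WT) or iMSN-D2RKO, which are D2R flox/flox mice with a Cre recombinase driven by the dopamine D1 receptor promoter, so that the D2 receptor is deleted from the spiny neurons of the indirect pathway through embryonic precursors that express both receptors. They received an intraperitoneal injection of saline or of 20 mg/kg cocaine at zeitgeber time 3 (ZT3) and were killed every 4 h, at ZT7, ZT11, ZT15, ZT19 and ZT23, with 3 libraries per genotype, treatment and time point. The ZT3 libraries, 3 per genotype, are labelled as belonging to both treatments and open both the saline and the cocaine series of their genotype. Each genotype thus has 33 libraries and each of the 4 series has 18. The labels do not state that each library is 1 mouse, so p-values measure the spread between these samples, which may be partly technical.

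Values are FPKM, in which the fragments of a gene are divided by its length and by the size of the library. Their total per library ranged from 364078 to 690048 with a median of 396432.5, and 12496 to 13028 genes reached 1 FPKM in a library. The read depth is unknown, but a relative depth was estimated from the values above 0 of 1439 rarely detected genes, and taken as lower where these were higher. It ranged from 0.346 to 1.75. The highest total, 690048, belonged to iMSN-D2RKO ZT7 saline replicate 1, and the next was 465297.

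Before any comparison, 13 libraries stood apart from the rest. Once group means were removed, the leading principal component carried 43.6% of the remaining variance over 9584 genes. The 13 libraries held its highest scores, 44.3 to 56.1, whereas the other 53 libraries scored between -35.9 and 15.1. They were 6 WT and 7 iMSN-D2RKO libraries, and 10 of the 13 fell at ZT19 or ZT23. Some of the 8 genes moved with this axis and others hardly did. The median level of Cyp51 was 16.79 FPKM in the set-apart libraries and 12.02 FPKM in the others, that of Hmgcs1 was 68.6 and 54.36 FPKM, and that of Srebf1 was 16.09 and 23.4 FPKM, whereas that of Sqle was 17.82 and 18.84 FPKM. The set-apart libraries were higher in Cyp51 and Hmgcs1 and lower in Srebf1, so the members called below between genotypes, between dark and light or by the rank test for rhythm are given with and without them.

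Drd2, the deleted receptor gene, did not separate the genotypes in these gene-level values. Its FPKM ran from 99.09 through a median of 129.5 to 304.4 in WT and from 78.03 through 112 to 374.6 in iMSN-D2RKO, and the difference did not pass in saline (0.01 on the log2 scale, limma adjusted p = 0.996) or cocaine (-0.25, adjusted p = 1). The ranges overlapped almost fully. Many of the high values came from the set-apart libraries, where Drd2 had a median of 227.8 FPKM against 117.6 FPKM in the others. Among the other libraries it ran from 99.09 through 121 to 239.6 FPKM in WT and from 78.03 through 107.2 to 374.6 FPKM in iMSN-D2RKO, which still overlapped. A value summed over the whole gene does not check a deletion of part of it in 1 cell class, and the group is therefore called by its label. Penk, the enkephalin precursor of the indirect-pathway neurons, was higher in the libraries labelled iMSN-D2RKO than in WT by 0.79 in saline (adjusted p = 0.00113) and 0.69 in cocaine (adjusted p = 0.00889). Drd1 was higher by 0.48 in cocaine (adjusted p = 0.00905). The highest Penk value, 9282 FPKM, was that of iMSN-D2RKO ZT7 saline replicate 1. The 8 markers of spiny neurons, the main cells of the labelled tissue, summed to at least 2395 FPKM in every library. Transcripts of neighbouring glutamate neurons (Slc17a7, Slc17a6, Neurod6 and Tbr1) were also present, with a summed median of 126.7 FPKM outside the set-apart libraries and 112.5 FPKM within them.

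All 8 genes are protein coding and lie on 5 chromosomes of the mouse genome (GRCm38, GENCODE annotation): Hmgcs1 at chr13:119690379-119708260, Idi1 at chr13:8885501-8892451, Fdft1 at chr14:63145150-63179578, Sqle at chr15:59315077-59331192, Cyp51 at chr5:4081145-4104746, Insig1 at chr5:28071363-28078662, Srebf1 at chr11:60199089-60222581 and Srebf2 at chr15:82147181-82205379. Promoters of 6 of the 8 were found in RefSeq (GRCm38.p6), Sqle and Fdft1 not being among them. SREBPs bind sterol regulatory elements and E-boxes, usually beside the CCAAT boxes of NF-Y, so the 250 bases before each start were searched on both strands for TCACNCCAC, CACGTG and CCAAT. The first was present in 1.05%, the second in 6.02% and the third in 33.8% of 32851 mouse promoters of the same length. Hmgcs1 held 1 sterol regulatory element, TCACCCCAC at 137 to 129 bases before the start, and 3 CCAAT boxes. Insig1 held 1 E-box at 101 to 96 bases before the start and 1 CCAAT box, Srebf2 and Cyp51 held 1 CCAAT box each, and Idi1 held 2. Of the 3 Srebf1 starts, 2 had 1 CCAAT box each and the other had no match. The windows of Hmgcs1, Insig1 and Srebf2 are shown because the first 2 carry the rarer motifs and Srebf2 is the gene that differed between genotypes. Bases inside the GENCODE gene are left out, capitals mark the matches (ATTGG is CCAAT on the other strand), and all 3 are read on the plus strand from chr13:119690101-119690350, chr5:28071162-28071362 and chr15:82147019-82147180.
Hmgcs1: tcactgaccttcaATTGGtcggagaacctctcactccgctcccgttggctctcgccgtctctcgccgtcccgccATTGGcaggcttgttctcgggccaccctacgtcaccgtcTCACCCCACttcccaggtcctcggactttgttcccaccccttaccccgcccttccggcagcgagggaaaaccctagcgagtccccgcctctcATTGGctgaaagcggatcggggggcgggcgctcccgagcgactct
Insig1: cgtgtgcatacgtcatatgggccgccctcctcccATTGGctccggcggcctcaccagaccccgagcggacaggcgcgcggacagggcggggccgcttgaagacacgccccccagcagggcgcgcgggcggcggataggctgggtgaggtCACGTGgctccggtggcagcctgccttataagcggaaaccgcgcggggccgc
Srebf2: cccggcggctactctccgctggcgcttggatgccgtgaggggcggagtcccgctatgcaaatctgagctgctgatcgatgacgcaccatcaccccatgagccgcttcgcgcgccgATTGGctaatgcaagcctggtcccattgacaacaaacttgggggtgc
A match describes these letters only, and no binding was measured.

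The levels of the 8 genes spanned a wide range. On the FPKM scale, which divides by transcript length, the means over 66 libraries were 61.6 ± 8.87 (SD) for Srebf2, 57.5 ± 10.4 for Hmgcs1, which condenses acetoacetyl-CoA with acetyl-CoA at the head of the pathway, and 23.1 ± 5.74 for Srebf1. Below them came Sqle, the squalene epoxidase, at 18.5 ± 3.00, Fdft1, the squalene synthase, at 16.8 ± 4.01, Insig1 at 15.4 ± 2.78, and Cyp51, the lanosterol demethylase, at 13.4 ± 2.79. Idi1, the isopentenyl diphosphate isomerase, stood last at 1.05 ± 0.313. Neighbours in this order often changed places within a library. Srebf2 exceeded Hmgcs1 in 45 of 66 libraries, Srebf1 exceeded Sqle in 55, Sqle exceeded Fdft1 in 48, Fdft1 exceeded Insig1 in 47 and Insig1 exceeded Cyp51 in 51. Only 2 steps stood beyond the spread, Hmgcs1 above Srebf1 in 65 of 66 and Cyp51 above Idi1 in all 66. At about 1 FPKM, Idi1 is near the filter on low values, and its differences on the log2(FPKM + 1) scale are understated.

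**Figure D1:**
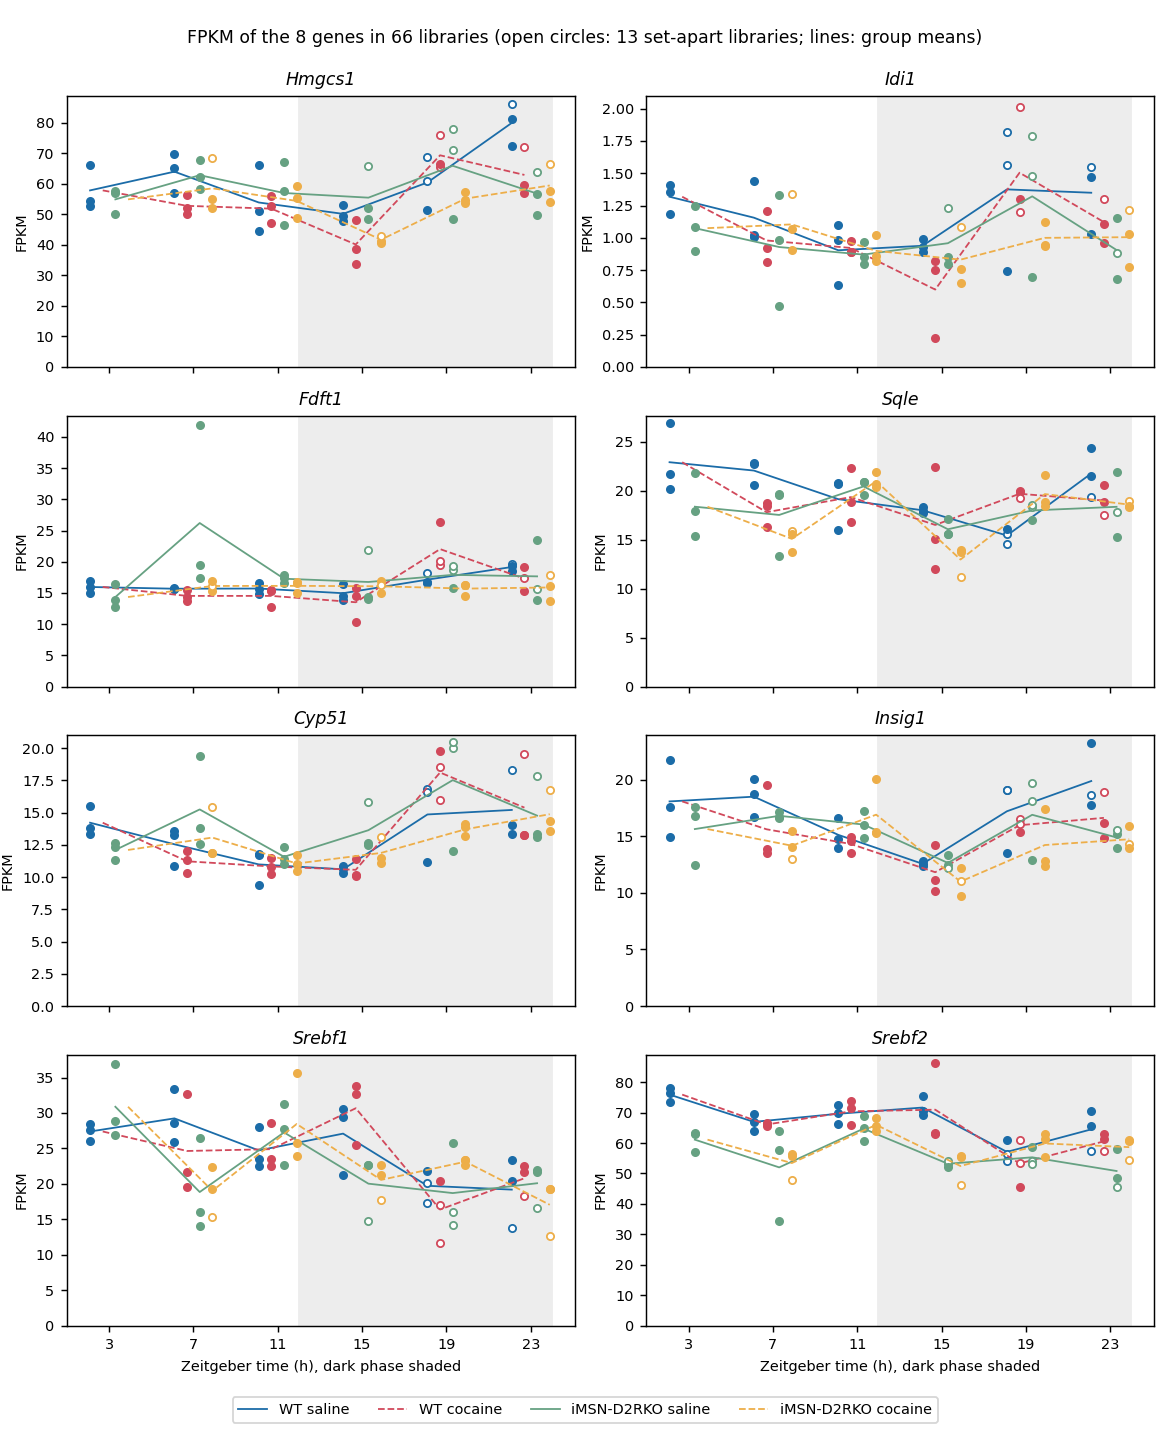
FPKM of the 8 genes (y axis) against zeitgeber time in hours (x axis, dark phase shaded) in 66 libraries, points being shifted sideways by series, lines joining group means, and open circles marking the 13 set-apart libraries. Srebf2 in iMSN-D2RKO lies below WT at ZT3, ZT7 and ZT15, and most open circles for Cyp51 and Hmgcs1 lie above their group mean.

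The group means varied least for Srebf2, with a ratio of highest to lowest of 1.49, against 1.71 for Cyp51 and more for the other 6. The lowest group mean was at ZT15 after cocaine for 6 of the genes: WT for Hmgcs1 (40.1 FPKM), Idi1 (0.600), Fdft1 (13.5) and Cyp51 (10.6), and iMSN-D2RKO for Sqle (12.96) and Insig1 (10.99). The exceptions were Srebf1, lowest in WT ZT19 cocaine at 16.4 FPKM, and Srebf2, lowest in iMSN-D2RKO ZT23 saline at 50.8 FPKM. Of the 3 libraries of WT ZT15 cocaine, replicate 3 gave the lowest value of each of these 6 genes, 33.62 FPKM for Hmgcs1 and 0.2281 FPKM for Idi1 among them, and it had the lowest relative depth of all 66 libraries (0.346). The summed glutamate neuron markers had their lowest group mean, 29.38 FPKM, in iMSN-D2RKO ZT15 cocaine, and stood at 72.51 FPKM in WT ZT15 cocaine. The part of depth and of these markers in the low means was not tested.

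Correlations across the 22 group means are given as a description, since groups share time points and processing. Pearson's r of log2(FPKM + 1) was 0.832 between Hmgcs1 and Insig1, 0.804 between Hmgcs1 and Idi1, 0.727 between Hmgcs1 and Cyp51, 0.718 between Cyp51 and Fdft1, and 0.712 between Sqle and Insig1. Srebf1 and Srebf2 went together at 0.753. The SREBP genes ran opposite to several enzymes, with r of -0.771 between Cyp51 and Srebf1 and -0.671 between Fdft1 and Srebf1. Sqle did not keep to the other enzymes. Besides Insig1 it went with Srebf2 (0.535) as much as with Hmgcs1 (0.531), and had r of 0.358 with Idi1, 0.111 with Cyp51 and 0.102 with Fdft1. Over the 66 deviations of single libraries from their group means, Hmgcs1 still went with Cyp51 (0.760) and Idi1 (0.692). Some pairs had a smaller r there, with 0.271 for Srebf1 and Srebf2, 0.346 for Sqle and Insig1, and 0.352 for Hmgcs1 and Fdft1, while others had one as large, with 0.487 for Cyp51 and Insig1, -0.564 for Hmgcs1 and Srebf1, and -0.621 for Fdft1 and Srebf2. These deviations also followed the library axis, with r of 0.713 for Cyp51, 0.577 for Idi1, 0.571 for Hmgcs1 and -0.598 for Srebf1, against 0.222 for Insig1, -0.040 for Fdft1, -0.155 for Srebf2 and -0.212 for Sqle. Srebf1 followed the summed level of 10 oligodendrocyte markers at 0.705, against 0.327 for Insig1 and between -0.271 and -0.053 for the other 6. Their part in these correlations was not tested. In bulk tissue, fewer cells of a type and less RNA per cell cannot be told apart.

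**Figure D2:**
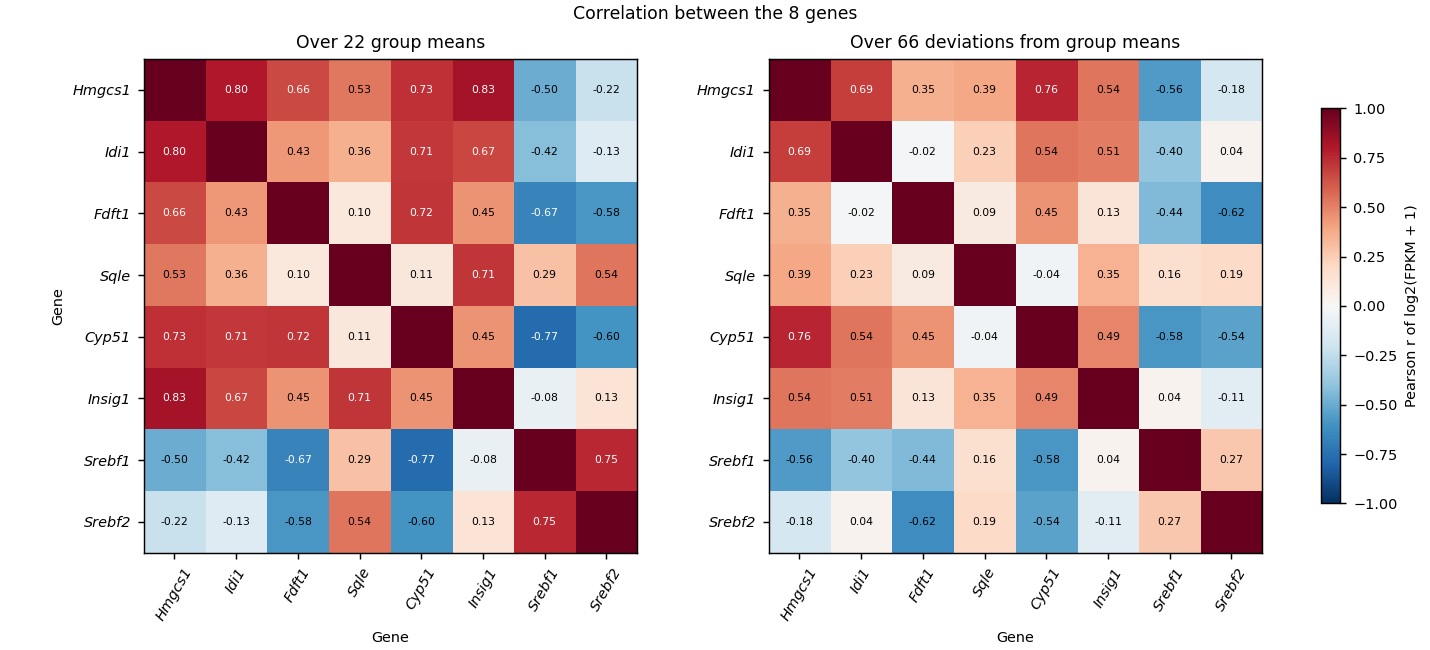
Pearson's r of log2(FPKM + 1) between each pair of the 8 genes (both axes list the genes, colour from -1 to 1), over 22 group means at left and over 66 deviations of libraries from their group means at right. Hmgcs1, Idi1, Cyp51 and Insig1 form a positive block, whereas Srebf1 is negative with Hmgcs1, Cyp51 and Fdft1 in both panels.

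The genes whose pattern over the 22 group means was most like each member were ranked. Among genes with a mean of at least 5 FPKM, Hmgcs1 was most like Msmo1, a sterol oxidase that acts after Cyp51 (r = 0.884), and Idh1 (0.855), which makes NADPH in the cytosol. Gfra2, a receptor of the neurotrophic factor neurturin, was among the 2 genes most like Sqle (0.879). Insig1 was most like Opalin, an oligodendrocyte membrane protein (0.847), and Hmgcs1 (0.832). The other 5 were most like genes outside the pathway: Idi1 like S1pr1 (0.895) and Mpv17 (0.885), Cyp51 like Cdkal1 (0.929) and a joined entry of Gm21949, Iqcj and Schip1 (0.9195), Fdft1 like Myl12b (0.899) and Gpi1 (0.889), Srebf1 like Grin2d (0.940) and Dgkq (0.938), and Srebf2 like Spata2 (0.895) and Rnf44 (0.892). Over the 66 deviations the nearest genes were others in nearly every case, Pak1 and Pls3 for Hmgcs1, Gfra2 and Car10 for Sqle, Nab1 and Calu for Idi1, Gid8 and Orc2 for Cyp51, Fkbpl and Bag1 for Fdft1, Tmem163 and Hs3st1 for Insig1, Llgl1 and 2310022B05Rik for Srebf1, and Add2 and Pou6f1 for Srebf2. Gfra2 was the only gene named for a member on both scales.

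The first question was whether an acute dose of cocaine shifted these genes at single time points. No member passed in any of 80 tests, 8 genes at 5 time points in 2 genotypes (limma, adjusted over 14643 genes), with 7 at an unadjusted p under 0.05. The percentage of all genes called was 0.00683, 0, 0.00683, 0.0205 and 0 at ZT7, ZT11, ZT15, ZT19 and ZT23 in WT, and 0.0137 at ZT7 and 0 at each of the other 4 time points in iMSN-D2RKO, so that hardly any gene passed these tests. The cocaine mean was higher in 29 and lower in 51 of the 80. These are not independent, since several of the 8 genes go together, and 12 of the 80 took the other sign without the set-apart libraries. The share of all genes lower in cocaine was not counted.

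The smallest p belonged to Fdft1 at ZT7 in iMSN-D2RKO. Its FPKM was 41.86, 17.32 and 19.45 in saline and 15.28, 16.19 and 16.88 in cocaine. The groups did not overlap, but 41.86 comes from the library with the highest total, and the difference of -0.56 (SE 0.179, limma adjusted p = 0.116) did not pass. Without that library it was -0.18 (adjusted p = 0.787). In WT, the Fdft1 values at ZT19 went the other way, at 18.18, 16.53 and 16.7 in saline and 19.5, 26.45 and 20.14 in cocaine.

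Hmgcs1 gave 3 of the other 6. At ZT15 its FPKM in WT was 53.2, 49.38 and 47.92 in saline and 38.52, 48.24 and 33.62 in cocaine, groups that touch at 48.24 (difference -0.33, limma adjusted p = 0.697). In iMSN-D2RKO at the same time it was 48.43, 65.92 and 52.07 in saline and 41.43, 40.72 and 42.96 in cocaine, without overlap (-0.39, adjusted p = 1). At ZT23 in WT it was 86.15, 81.4 and 72.34 in saline and 59.73, 57.12 and 71.91 in cocaine, again without overlap (-0.34, adjusted p = 1). None of the 3 passed, although every Hmgcs1 mean in these pairs was lower in cocaine.

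Sqle gave the last 3, in both directions. In WT its difference was -0.29 at ZT7, where saline gave 22.82, 22.71 and 20.58 FPKM and cocaine 18.4, 16.23 and 18.75, and 0.33 at ZT19, where saline gave 15.61, 14.52 and 16.1 and cocaine 19.92, 19.86 and 19.22. In iMSN-D2RKO at ZT15 it was -0.29, from 17.09, 15.52 and 15.53 in saline to 13.92, 13.77 and 11.18 in cocaine. The limma adjusted p was 1, 0.939 and 1. The groups did not overlap in any of these 3 pairs, and the WT pairs point opposite ways at ZT7 and ZT19. These pairs were shown for their small unadjusted p, as were those of Hmgcs1 and of Fdft1 at ZT7. How many of all genes separate in this way was not counted, so the lack of overlap adds nothing to the tests.

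The other genes of the pathway gave no call at single time points either. Over 4 lists, cholesterol synthesis (20 of 21 genes tested), SREBP control (7), SREBP fatty acid targets (8 of 9) and sterol uptake and efflux (13), Tm7sf2 and Scd2 being listed only in joined entries, none of the 40 genes other than the members passed in any of the 10 comparisons (400 limma tests, 28 at an unadjusted p under 0.05). The smallest p of genes outside the 8 was at ZT7 in iMSN-D2RKO, for the oxysterol receptor Nr1h2 (-0.63, limma adjusted p = 0.0934) and Mvd, the diphosphomevalonate decarboxylase (-0.87, adjusted p = 0.0980). At ZT19 in iMSN-D2RKO, Mylip, a ubiquitin ligase induced by oxysterol receptors, was at -0.67 and Nsdhl, a sterol dehydrogenase, at -0.39 (adjusted p = 0.304 for both). In WT, genes among the 2 with the smallest p were Acss2 at ZT7 (-0.34), Acss2 and Acat2 at ZT11 (0.23 and -0.25), Scap and Apoe at ZT15 (0.26 and -0.59), Acly and Mbtps1 at ZT19 (-0.36 and -0.22), and Dhcr7 at ZT23 (-0.18), with adjusted p between 0.742 and 1. In iMSN-D2RKO they were Abca1 and Msmo1 at ZT11 (0.25 and -0.16), Nsdhl at ZT15 (-0.29), and Apoe and Sc5d at ZT23 (-0.62 and 0.57), with an adjusted p of 1.

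Averaged over ZT7 to ZT23, the cocaine effect was small and did not pass in any of 16 tests (limma, 5 at an unadjusted p under 0.05), where 0.0137% of all genes passed in WT and 0% in iMSN-D2RKO. The mean was lower in cocaine in 13 of the 16. In WT, Hmgcs1 was at -0.16 (SE 0.0680, adjusted p = 1) and Insig1 at -0.15 (SE 0.0673, adjusted p = 1). In iMSN-D2RKO, Hmgcs1 was at -0.14, Fdft1 at -0.20 and Cyp51 at -0.14, each with an adjusted p of 0.910, and without ZT7 saline replicate 1 Fdft1 was at -0.12. These 3 were at -0.06, -0.15 and -0.06 without the set-apart libraries. For Hmgcs1 the lowest, median and highest FPKM were 44.53, 61.07 and 86.15 in WT saline, 33.62, 55.97 and 76.08 in WT cocaine, 46.38, 58.28 and 78.12 in iMSN-D2RKO saline, and 40.72, 54.6 and 68.6 in iMSN-D2RKO cocaine. The ranges overlapped widely, with the cocaine medians lower by a few FPKM in both genotypes. The median difference of the 8 genes was -0.051 in WT and -0.090 in iMSN-D2RKO, beside 0.000 and -0.008 for all genes tested. None of the 40 other list genes passed (5 of 80 tests at an unadjusted p under 0.05). The smallest p were those of Lss, the lanosterol synthase (-0.12), and Npc1, which exports cholesterol from lysosomes (-0.10), in WT, and of Msmo1 (-0.22) and Fdps, the farnesyl diphosphate synthase (-0.26), in iMSN-D2RKO, with adjusted p of 1, 1, 0.910 and 0.910.

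Whether the cocaine effect differed between the genotypes was tested as an interaction over ZT7 to ZT23. No member passed in 8 tests (limma, 0 at an unadjusted p under 0.05), and 0% of all genes passed. The smallest p was for Cyp51, whose effect was 0.03 in WT and -0.14 in the libraries labelled iMSN-D2RKO, a difference of -0.17 (SE 0.1004, adjusted p = 0.9998). Of the 40 other list genes none passed (0 at an unadjusted p under 0.05), and Mbtps2 (0.17) and Mbtps1 (0.10), the proteases that release SREBPs, had the smallest p.

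**Figure D3:**
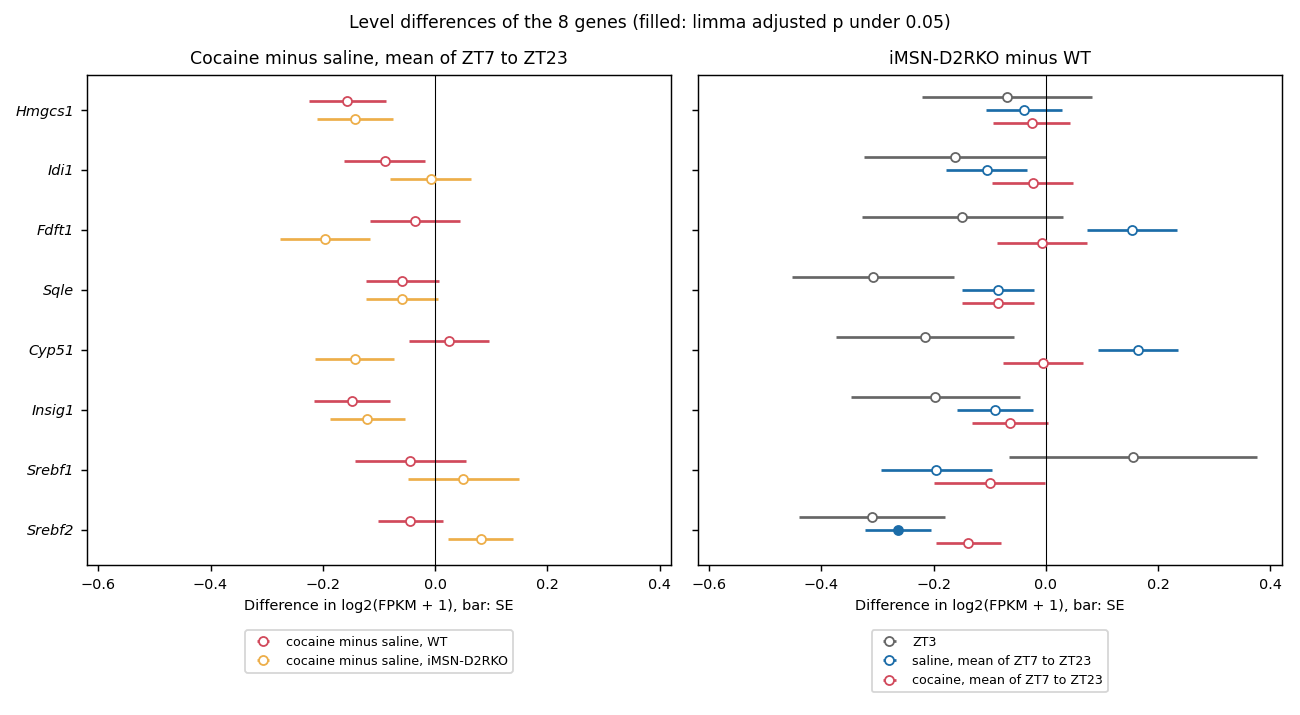
Differences of the 8 genes in log2(FPKM + 1) (x axis, bars are SE from limma) for cocaine minus saline at left and iMSN-D2RKO minus WT at right, filled where the adjusted p is under 0.05. The only filled point is Srebf2 in saline at -0.26, and most open points for cocaine minus saline lie left of 0.

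Between genotypes, Srebf2 was the member that differed. SREBP-2, its product, is the SREBP that acts mainly on cholesterol synthesis and sterol uptake. In saline over ZT7 to ZT23, the lowest, median and highest FPKM were 53.95, 67.07 and 75.33 in WT and 34.25, 54.22 and 68.86 in iMSN-D2RKO, and Srebf2 was lower in the libraries labelled iMSN-D2RKO by 0.26 on the log2 scale (difference -0.26, SE 0.0581, limma adjusted p = 0.0257). The ranges overlapped over the whole day, but at some single time points they did not. At ZT15 the FPKM was 70.41, 75.33 and 69.23 in WT and 53.2, 54.12 and 52.26 in iMSN-D2RKO. At ZT7 it was 69.69, 67.07 and 64.08 in WT and 34.25, 57.82 and 63.93 in iMSN-D2RKO. At ZT3 it was 73.32, 76.39 and 78.03 in WT and 63.09, 63.2 and 57.02 in iMSN-D2RKO. All 3 iMSN-D2RKO libraries were below all 3 WT libraries at these 3 of the 6 time points, while at ZT11, ZT19 and ZT23 the groups overlapped. The ZT3 libraries belong to both treatments and are no part of the saline difference, and at ZT7 the groups nearly touched (64.08 and 63.93). How many of all genes separate in this way was not counted.

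In cocaine Srebf2 lay in the same direction without passing. The lowest, median and highest FPKM were 45.6, 63.46 and 86.44 in WT and 46.12, 56.55 and 68.36 in iMSN-D2RKO (difference -0.14, SE 0.0581, limma adjusted p = 0.859). At ZT3 alone the difference was -0.31 (SE 0.130, adjusted p = 1). Genotype groups again did not overlap at ZT7 and ZT15, with 65.53, 66.49 and 66.2 against 56.55, 47.88 and 55.84 at ZT7, and 63.46, 62.98 and 86.44 against 55.47, 55.73 and 46.12 at ZT15. Whether the saline and cocaine differences differ was tested by the interaction above, where Srebf2 gave 0.13 (SE 0.0822, adjusted p = 0.9998). In all, 1 of 24 member tests passed, with 5 at an unadjusted p under 0.05, beside 0.041% of all genes at ZT3, 0.212% in saline and 0.109% in cocaine.

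The Srebf2 call in saline rests on a narrow margin. It was kept in 59 of 66 fits that each left out 1 library, with differences from -0.298 to -0.209, and was lost without WT ZT7 saline replicate 1 (adjusted p = 0.0578), WT ZT11 saline replicate 1 (0.0517), WT ZT15 saline replicate 2 (0.0619), WT ZT23 saline replicate 2 (0.0678), iMSN-D2RKO ZT11 saline replicate 2 (0.0533), iMSN-D2RKO ZT19 saline replicate 3 (0.0501) or iMSN-D2RKO ZT23 saline replicate 3 (0.0600). Without iMSN-D2RKO ZT7 saline replicate 1, the library of highest total, it was -0.21 (0.0307). Without the 13 set-apart libraries the difference was -0.27 with an adjusted p of 0.113. The size hardly moved, but the call did not hold with the other 53 libraries. With only the groups compared the difference was -0.26 and the limma adjusted p 0.236. The call was lost too when replicate 1, 2 or 3 was left out throughout.

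The other members did not pass between genotypes. Cyp51 was at 0.16 in saline (SE 0.0710, limma adjusted p = 0.361) and -0.01 in cocaine. Sqle was at -0.31 at ZT3 (SE 0.144, adjusted p = 1), where WT gave 20.12, 26.87 and 21.68 FPKM and iMSN-D2RKO 21.8, 17.89 and 15.35. The Sqle groups overlapped there. Srebf1, whose product acts mainly on fatty acid genes, was at -0.19 in saline (adjusted p = 0.454). The differences of Hmgcs1, Idi1, Fdft1 and Insig1 lay between -0.20 and 0.15. None of the 40 other list genes passed (11 of 120 tests at an unadjusted p under 0.05). Among the 2 with the smallest p were, in saline, Apoe, the main sterol carrier of the brain (0.35, adjusted p = 0.308), and in cocaine Nr1h2 (-0.14) and Cyp46a1, which clears brain cholesterol (-0.17), both with an adjusted p of 1. None of the 10 oligodendrocyte markers passed in the 3 genotype comparisons (limma, 2 at an unadjusted p under 0.05, both in saline), and their median difference in saline was -0.252.

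The next comparison set the dark hours (ZT15, ZT19 and ZT23) against the light hours (ZT3, ZT7 and ZT11) in each series. Srebf2 in WT cocaine and Srebf1 in iMSN-D2RKO saline were the only 2 of 32 member tests that passed (limma, 8 at an unadjusted p under 0.05), and both fell in the dark. The saline and cocaine series of a genotype share their ZT3 libraries and are not independent. Of all genes, 2.75% passed in WT saline, 13.7% in WT cocaine, 27.3% in iMSN-D2RKO saline and 0.942% in iMSN-D2RKO cocaine. Against these, the members gave 0, 1, 1 and 0 of 8, so that no series held many more calls among them than among all genes.

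Srebf2 in WT cocaine had a lowest, median and highest FPKM of 65.53, 71.42 and 78.03 in the light and 45.6, 61.21 and 86.44 in the dark (difference -0.21, SE 0.0750, limma adjusted p = 0.0490). The dark range enclosed the light range, its top value of 86.44 being WT ZT15 cocaine replicate 3. The call was kept in 18 of 66 fits that left out 1 library, with adjusted p from 0.0126 to 0.131 and differences from -0.263 to -0.178, and was lost in the other 48, which include libraries of other groups through the shared spread. The call was kept without the set-apart libraries (-0.27, adjusted p = 0.0261), but was lost with the library score as a covariate (-0.19, adjusted p = 0.154), with ZT3 left out of the light hours (-0.16, 0.183), with only the groups compared (0.0726) and with no filter on low values (0.0558). In the other series the Srebf2 difference was -0.14 in WT saline, -0.14 in iMSN-D2RKO saline and -0.08 in iMSN-D2RKO cocaine, none of which passed. Without iMSN-D2RKO ZT7 saline replicate 1, a light library at 34.25 FPKM, Srebf2 in iMSN-D2RKO saline was at -0.23 and did pass (adjusted p = 0.0129).

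Srebf1 in iMSN-D2RKO saline had a lowest, median and highest FPKM of 14.08, 26.83 and 36.97 in the light and 14.21, 21.67 and 25.81 in the dark (difference -0.35, SE 0.128, limma adjusted p = 0.0407). The ranges overlapped. Of the 9 dark libraries 4 were set apart, and of the 9 light libraries none. Without the set-apart libraries the difference was -0.08 (adjusted p = 0.889), and with the library score as a covariate it was -0.13 (adjusted p = 0.635). The call was lost too with ZT3 left out of the light hours (-0.20, adjusted p = 0.299), with only the groups compared (0.143) and with no filter on low values (0.0543). The summed oligodendrocyte markers, of which Mbp was the most abundant and none was at 0, had a median of 3912 FPKM in the light and 2742 FPKM in the dark of this series. Of the 10 markers 5 fell, beside 27.3% of all genes called. The marker sums were 2634, 2742, 2663 and 2117 FPKM in the 4 set-apart dark libraries, and 3910, 3869, 4192, 3274 and 2671 FPKM in the other dark libraries. The part of these markers in the Srebf1 difference was not tested. Srebf1 was at -0.32 in WT saline (adjusted p = 0.115), -0.22 in WT cocaine (0.209) and -0.33 in iMSN-D2RKO cocaine (0.262), and without the set-apart libraries at -0.20, -0.08 and -0.28.

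The Srebf1 call was kept in 57 of 66 fits that left out 1 library. It was lost without iMSN-D2RKO ZT3 replicate 2 or 3 (adjusted p = 0.0810 and 0.0506), ZT7 saline replicate 2 (0.105), ZT11 saline replicate 1 or 2 (0.0569 and 0.0794), ZT15 saline replicate 2 (0.133), ZT19 saline replicate 1 or 3 (0.111 and 0.0897) or ZT23 saline replicate 3 (0.129). All 9 belong to the series compared.

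The enzymes among the 8 leaned both ways between dark and light. Cyp51 was higher in the dark by 0.23 in WT cocaine (limma adjusted p = 0.0737) and by 0.21 in iMSN-D2RKO saline (adjusted p = 0.0681), Sqle was at -0.21 in WT saline (adjusted p = 0.111), and Insig1 was at -0.22 in iMSN-D2RKO cocaine (adjusted p = 0.271). None of these passed. Without the set-apart libraries Sqle was at -0.16 and Insig1 at -0.23 there. Cyp51 in iMSN-D2RKO saline had a lowest, median and highest FPKM of 11, 12.3 and 19.38 in the light and 12.04, 13.33 and 20.45 in the dark. Its difference became -0.02 without the set-apart libraries, while in WT cocaine it stayed at 0.22 and then passed (adjusted p = 0.0257). The median difference of the 8 genes was -0.010, -0.068, -0.086 and -0.083 in WT saline, WT cocaine, iMSN-D2RKO saline and iMSN-D2RKO cocaine, beside 0.051, 0.061, 0.032 and 0.023 for all genes.

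**Figure D4:**
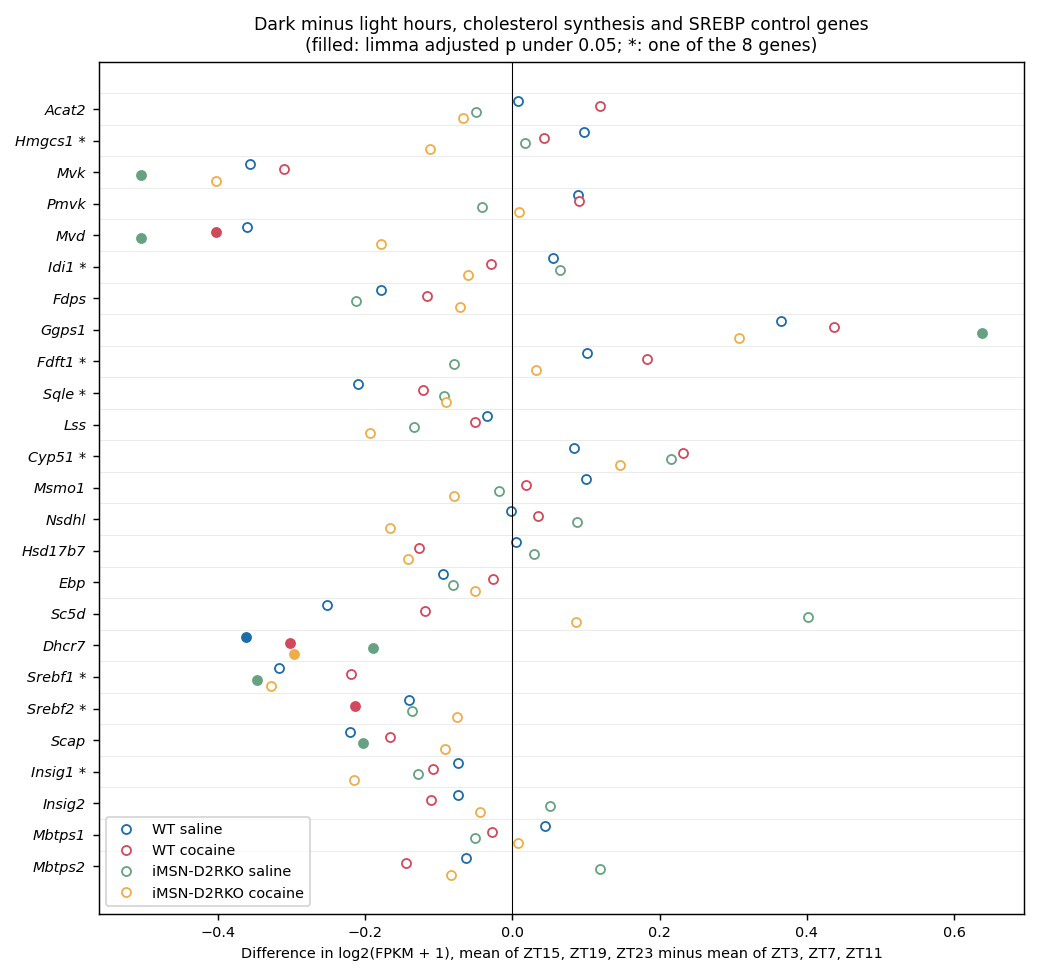
Dark minus light difference in log2(FPKM + 1) (x axis) of tested genes of the cholesterol synthesis and SREBP control lists (y axis, the 8 genes marked with an asterisk; not every gene of the lists is drawn), 1 point per series, filled where the limma adjusted p is under 0.05. Dhcr7 is filled in all 4 series, between -0.36 and -0.19, while the 8 genes have 2 filled points in all.

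Outside the 8, a late enzyme of the pathway was called in every series. Dhcr7, the reductase of the last step to cholesterol, fell in the dark in all 4 series, by 0.36 in WT saline (limma adjusted p = 0.0106), 0.30 in WT cocaine (0.00822), 0.19 in iMSN-D2RKO saline (0.0485) and 0.30 in iMSN-D2RKO cocaine (0.0323) on the log2 scale. In WT saline its FPKM was 14.4, 17.42 and 12.86 at ZT3, 13.63, 12.94 and 12.91 at ZT7, and 12.03, 12.82 and 13.99 at ZT11. In the dark it was 9.558, 10.4 and 12.5 at ZT15, 9.467, 10.64 and 7.401 at ZT19, and 11.37, 12.81 and 10.08 at ZT23. Light and dark overlapped only between the top dark value of 12.81 and the lowest light value of 12.03. Without the set-apart libraries Dhcr7 was at -0.45 (adjusted p = 0.0107), -0.30 (0.00889), -0.13 (0.612) and -0.29 (0.0431), so the call ended in iMSN-D2RKO saline.

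Of the cholesterol synthesis list, 2 of 20 genes passed in WT saline, 3 in WT cocaine, 5 in iMSN-D2RKO saline and 1 in iMSN-D2RKO cocaine, all lower in the dark except 1. Beside the 2.75%, 13.7%, 27.3% and 0.942% of all genes, the shares in WT cocaine and iMSN-D2RKO saline were near the background, and the other 2 rest on 2 genes and 1 gene. That 1 was Ggps1, which makes geranylgeranyl diphosphate on a side branch and rose by 0.64 in iMSN-D2RKO saline (limma adjusted p = 0.0172). Mvd fell by 0.40 in WT cocaine (adjusted p = 0.0450) and by 0.50 in iMSN-D2RKO saline (0.0130), and Mvk, the mevalonate kinase, fell by 0.50 in iMSN-D2RKO saline (0.0206). In the same series Scap fell by 0.20 (0.0401), Acss2, the acetyl-CoA synthetase, by 0.26 (0.0271) and Nr1h2 by 0.41 (0.00635), whereas Mylip rose by 0.46 (0.0147). Without the set-apart libraries none of the calls named here for Mvd, Mvk, Ggps1, Scap, Acss2, Nr1h2 and Mylip held, their adjusted p in iMSN-D2RKO saline being 0.403, 0.757, 0.499, 0.889, 0.596, 0.294 and 0.332, and that of Mvd in WT cocaine 0.0965. Oligodendrocyte markers that fell in the dark numbered 0, 2, 5 and 1 of 10 in the 4 series in the order above, beside the same percentages of all genes, and their summed median went from 3569 to 3793 FPKM, 3361 to 3159, 3912 to 2742, and 3118 to 2980 from light to dark. In iMSN-D2RKO saline, all 4 set-apart dark libraries lay at or below the dark median of these marker sums. The part of the markers in these differences was not tested.

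Rhythm over the day was scored in each series with the rules of JTK_CYCLE, an exact rank test against cosine templates, at a p under 0.01 corrected over the templates but not over genes. Of 32 member tests 2 passed, Sqle in WT saline and Cyp51 in iMSN-D2RKO cocaine, beside 9.65% of all genes in WT saline, 9.04% in WT cocaine, 2.66% in iMSN-D2RKO saline and 0.932% in iMSN-D2RKO cocaine.

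Sqle in WT saline (exact corrected p = 0.00339, period 24 h, template peak at ZT5) had means of 22.9 FPKM at ZT3, 22.04 at ZT7, 19.1 at ZT11, 17.99 at ZT15, 15.4 at ZT19 and 21.7 at ZT23. All 3 values at ZT19, the lowest time point (15.61, 14.52 and 16.1), lay below all 3 at ZT3, the highest (20.12, 26.87 and 21.68). Of the 3 at ZT19, 2 were set-apart libraries. The call was kept in 9 of 18 series with 1 library left out and lost without WT saline ZT11 replicates 1 or 3, ZT15 replicates 1, 2 or 3, ZT19 replicates 1, 2 or 3, or ZT23 replicate 1, with a corrected p of at most 0.0141. It was lost too without the set-apart libraries (0.154), without outlier removal (0.0106), with the library score removed (0.0108) and with equal template values ranked as ties (0.0154). In WT cocaine and in both iMSN-D2RKO series Sqle had a corrected p of 1.

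Cyp51 in iMSN-D2RKO cocaine (exact corrected p = 0.000559, period 24 h, template peak at ZT21) went from 11.05 ± 0.598 FPKM (SD, n = 3) at ZT11 to 14.9 ± 1.68 at ZT23. Its values were 11.67, 10.48 and 11 at ZT11 and 16.75, 14.33 and 13.53 at ZT23, without overlap. These were its lowest and highest time points, picked from these same values. The call was lost without iMSN-D2RKO ZT7 cocaine replicate 1 or 3 (0.0154 for each) and without outlier removal (0.0106), and kept without the set-apart libraries (0.00243). Just outside the threshold were Fdft1 in WT cocaine (0.0108), Cyp51 in WT cocaine (0.0154) and Fdft1 in WT saline (0.0199). With a fit of a 24 h cosine and sine by limma, adjusted over all genes, Sqle (0.0372), Insig1 (0.0450) and Cyp51 (0.0384) passed in WT saline, Cyp51 (0.0257) in WT cocaine, and none in iMSN-D2RKO, beside 14.1% of all genes in WT saline, 14.6% in WT cocaine, 0.00707% in iMSN-D2RKO saline and 0% in iMSN-D2RKO cocaine. Cyp51 in WT cocaine went from 10.18, 11.41 and 10.1 FPKM at ZT15 to 15.96, 19.8 and 18.54 at ZT19. Of these ZT19 libraries, replicates 1 and 3 (15.96 and 18.54) were set apart, and replicate 2 (19.8) was not.

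Other pathway genes called rhythmic beside Sqle in WT saline included Mvk (exact corrected p = 6.22e-05) and Dhcr7 (0.000486), both with a template peak at ZT5 and lowest at ZT19. In iMSN-D2RKO saline Mvd (0.00173), Nr1h2 (0.00372) and Mylip (0.00173) were among those called. Of all genes, 9.65% were called in WT saline and 2.66% in iMSN-D2RKO saline. The rhythm test was repeated without the set-apart libraries for the members only, and WT ZT19 saline replicates 1 and 2 were set apart.

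Being called rhythmic in 1 series only is no test of a difference, so the rhythms were compared directly. No member passed in 32 tests of a difference in the 24 h cosine and sine, cocaine against saline in each genotype and iMSN-D2RKO against WT in each treatment (limma F test, 1 at an unadjusted p under 0.05), and the percentage of all genes that passed was 0, 0, 0 and 0. The 1 was Fdft1 in cocaine between genotypes (adjusted p = 0.570). None of the 40 other list genes passed (9 of 160 tests at an unadjusted p under 0.05). Among the 2 with the smallest p in each were Cyp46a1 between treatments in WT (adjusted p = 1), Sc5d and Mylip between treatments in iMSN-D2RKO (0.594), Sc5d between genotypes in saline (0.975), and Scap and Cyp46a1 between genotypes in cocaine (0.570).

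A count of low points was made after the values were seen and is given as a description. The lowest of the 6 time point means was at ZT15 for 4 of 8 members in WT saline (Hmgcs1, Insig1, Cyp51 and Fdft1), 6 in WT cocaine, 2 in iMSN-D2RKO saline (Sqle and Insig1) and 5 in iMSN-D2RKO cocaine. Of all genes, 10.8%, 21.7%, 8.96% and 12.6% had their lowest mean at ZT15 in these series, and of the cholesterol synthesis list 9, 10, 5 and 12 of 20. Insig1 was the member with its lowest mean there in all 4 series. In WT saline its FPKM at ZT15 was 12.33, 12.55 and 12.82, and the lowest value at any other time was 13.49. In iMSN-D2RKO cocaine it was 9.693, 12.21 and 11.06 at ZT15, with 12.4 as the lowest value elsewhere. In these 2 series Insig1 at ZT15 lay below every other library, and none of these ZT15 libraries was set apart except iMSN-D2RKO cocaine replicate 3, at 11.06.

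In the other 2 series the Insig1 values at ZT15 overlapped with other times, at 11.09, 14.21 and 10.15 FPKM in WT cocaine, where the lowest value elsewhere was 13.48, and at 12.42, 12.18 and 13.33 in iMSN-D2RKO saline, where it was 12.45.

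Hmgcs1 had its lowest mean at ZT15 in 3 of the 4 series, and at ZT3 in iMSN-D2RKO saline. In WT cocaine it went from 38.52, 48.24 and 33.62 FPKM at ZT15 to 65.64, 66.34 and 76.08 at ZT19, and in WT saline from 53.2, 49.38 and 47.92 at ZT15 to 86.15, 81.4 and 72.34 at ZT23. The groups did not overlap in either pair, but the pairs were picked from these same values. Each sets the lowest against the highest time point mean of its series, so that separation is no test. Of these late libraries, WT ZT19 cocaine replicates 1 and 3 and WT ZT23 saline replicate 1 were set apart, and the remaining values (66.34, 81.4 and 72.34) also lay above all ZT15 values of their series. Srebf2 and Srebf1 had their lowest mean at ZT19 or ZT23 in WT, while in iMSN-D2RKO cocaine Srebf2 was lowest at ZT15, with Hmgcs1, Sqle, Idi1 and Insig1.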

How the data were processed

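Per the study's methods and the labels, stranded mRNA libraries of tissue punches were sequenced single-end, mapped to mm10 with TopHat and Bowtie, assembled with Cufflinks and Cuffmerge and scaled to gene-level FPKM by Cuffquant and Cuffnorm (CASAVA 1.8.2 at base calling, from the submitters' processing notes). The FPKM deposited by the authors were used as given: 66 libraries, the 6 ZT3 libraries being listed again with identical values.

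Here log2(FPKM + 1) of 14643 genes with at least 1 FPKM in a library was fitted by limma 3.58.1 (R 4.3.3) as group means of 22 groups, with a trended spread, two-sided tests and Benjamini-Hochberg adjustment, called under 0.05. FPKM are not counts, so no count model was used. JTK_CYCLE rules (periods of 20 and 24 h, at most 1 outlier removed per time point by Dixon's test at 95%) were rewritten in Python 3.11.15. The order of operations in the cosine templates and the Dixon limit were settled with the study's rhythm table in view, after many constructions had been compared with it, none of which matched it fully, so template peak times are uncertain by at least 2 h and corrected p near the threshold of 0.01 depend on the construction. Scripts were tested on simulated data.

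Members and lists were chosen with earlier results of these data known. The text names all 8 members, Drd2, and per comparison the list genes past the threshold with a mean of at least 5 FPKM (up to 5 a list), or else the 2 with the smallest p. Some list genes are counted in these lists but not reported here. For each member it names the 2 most correlated genes on each scale. Penk and Drd1 were named outside this rule after their values were seen. Astrocyte, microglia, endothelial and activity markers were also listed. The summed astrocyte median was 820.8 FPKM in the set-apart libraries and 700 in the others, microglia 217.4 and 263, and endothelial cells 60.51 and 70.54. Alternatives varied the pseudocount, filter, scaling, libraries, covariates and rhythm rules.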

Additional observations from a re-analysis of the deposited data

How the results depend on the processing

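Cocaine effects on the level, their difference between genotypes and differences in rhythm gave 0 member calls under every alternative run. Cocaine effects at single times gave 0, and 1 without the set-apart libraries (Cyp51 at ZT19 in WT, 0.77, limma adjusted p = 0.00444, a value set by 1 library in each treatment, whose spread is assumed to be that of the other groups). Leaving out libraries or replicate numbers gave 0 to 1, the call being Fdft1 at ZT7 in iMSN-D2RKO without saline replicate 2 or 3 (-0.79 and -0.71, adjusted p = 0.0129 and 0.0172) or Cyp51 at ZT19 in iMSN-D2RKO without saline replicate 2 (-0.53, adjusted p = 0.0460). The latter sets 2 set-apart saline libraries against 3 cocaine libraries that were not, and without the set-apart libraries Cyp51 was at 0.17 there (adjusted p = 1). The genotype count of 1 became 0 without the set-apart libraries and 0 with only the groups compared (Srebf2 adjusted p = 0.236), and ranged from 0 to 1 on leaving out libraries. Without replicate 1, 2 or 3 throughout, Srebf2 had an adjusted p of 0.273, 0.835 and 0.238.

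The dark to light count of 2 became 0 with no filter on low values, 0 with the library score as a covariate and 1 with ZT3 left out of the light hours (Cyp51 in WT cocaine, 0.35, adjusted p = 0.0393). It ranged from 0 to 4 on leaving out libraries, with 4 without iMSN-D2RKO ZT7 saline replicate 1 or ZT19 saline replicate 2. It stayed at 2 without the set-apart libraries (Srebf2 and Cyp51 in WT cocaine) and with only the groups compared (Sqle and Srebf1 in WT saline). The difference of Cyp51 in iMSN-D2RKO saline reversed, to -0.0215, without the set-apart libraries, and no called member difference changed sign under any alternative. Differences that were not called did so more widely: without the set-apart libraries 12 of 80 cocaine effects at single times, 3 of 16 over ZT7 to ZT23, 1 of 8 interactions and 6 of 32 dark to light differences took the other sign, and 0 of 24 between genotypes. Among them at ZT19 in iMSN-D2RKO were Hmgcs1 (-0.22 to 0.19), Insig1 (-0.23 to 0.12) and Srebf1 (0.34 to -0.15), and in the dark of iMSN-D2RKO saline Hmgcs1 (0.02 to -0.19). The rhythm count of 2 became 1 with ties in the templates (an alternative chosen after seeing the data), 11 at a threshold of 0.05 and 4 with the cosine and sine fit, and ranged from 0 to 4 on leaving out libraries. With no outlier removal it stayed at 2, but both calls ended (exact corrected p = 0.0106 for each) and Cyp51 and Fdft1 in WT cocaine were called instead. Rescaling by median ratio kept both main calls and added Cyp51 in WT cocaine (exact corrected p = 0.00755). Sqle was lost, Cyp51 in iMSN-D2RKO cocaine kept and Cyp51 in WT saline called both on removing the library score and on leaving out the set-apart libraries, the latter also calling Insig1 in WT saline. Causes were not tested.

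With the replicate number as a block, the dark to light count was 1, Srebf2 in WT cocaine having an adjusted p of 0.0532, and no other member call changed. The numbers share no stated source: same-numbered libraries of different groups had a median correlation of deviations of -0.0027 (-0.895 to 0.880, over 0.1 in 205 of 693 pairs), and 22 of 66 libraries correlated best with their own number. Depth is unknown beyond the relative values, and with 3 libraries a group small differences at single times, above all of Idi1, were not detectable.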
